A study of Rattus norvegicus with 12 samples.

Results

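A set of 154 genes stood higher on a soft hydrogel than on plastic in every one of 6 paired cultures of rat heart fibroblasts. They were chosen by their measured difference between the substrates. A member had log2(CPM + 1) at least 0.7 higher on soft gel than on plastic in all 6 pairs, where CPM is a gene's counts scaled to a library total of 1000000. A pair is the soft gel library and the plastic library with the same passage and replicate number. The set holds 154 of the 32623 genes in the deposited table and 1.05% of the 14660 genes that passed a filter on low counts, which all 154 members passed. The mirror rule, at least 0.7 lower on soft gel in every pair, found 53 genes. The substrate direction and the minimum size of the difference are therefore fixed by the choice of members and are given as a description. The rule also bears on level, since the added 1 CPM holds back genes that are low on soft gel, and on agreement between cultures, since every pair must pass, so levels and spread are descriptions too. It compared no library of passage 6 with one of passage 3.

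The cells were fibroblasts from the ventricles of adult wild-type rats, grown in medium with 20% fetal bovine serum. The 4 groups of 3 libraries were soft gel at passage 6, plastic at passage 6, soft gel at passage 3 and plastic at passage 3. Soft gel is a flat poly(ethylene glycol) norbornene hydrogel, a synthetic network, onto which cells were moved for 48 h, and plastic is tissue culture polystyrene. Its title frames the study around substrate stiffness and the activation, senescence and inflammatory secretion of these fibroblasts. The sources used here give neither the strain and sex of the rats, nor the stiffness of the gel, nor the number of animals. Soft gel cultures were also transferred to a new surface of another material, so stiffness, surface chemistry and transfer cannot be told apart.

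Fibroblasts sense a stiff surface through integrins, the receptors that couple the matrix to the actin cytoskeleton. On rigid plastic they spread, build contractile stress fibres and tend toward the myofibroblast state, and tension carries transcriptional co-activators such as YAP, TAZ and the MRTF proteins into the nucleus. On soft surfaces the cells build fewer stress fibres and those co-activators tend to stay in the cytoplasm. With further passages, cultured fibroblasts divide less and can become senescent, a lasting arrest in which they secrete inflammatory factors. The deposited table lists Ensembl identifiers without gene names, and none of the 154 members could be paired with a name. Members are therefore followed by identifier, the fibroblast label could not be checked against marker genes, and no member is assigned to any of these pathways.

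Depth ran from 47834926 to 71464905 counts per library, with 15927 to 16746 genes detected. TMM factors, which correct a library total for its composition, were 1.02 to 1.11 in soft gel libraries and 0.909 to 0.993 in plastic libraries, so plain CPM runs slightly high on soft gel. The median gene tested was 0.0749 to 0.168 higher on soft gel by pair on the log2(CPM + 1) scale. With CPM on TMM-scaled totals 109 of the 154 members still met the rule and 94 genes met its mirror. Of the genes meeting either rule, 53.7% were then higher on soft gel, where 74.4% were with plain CPM. Every member stayed at least 0.520 higher on soft gel in each pair with TMM-scaled totals.

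Together the members made up 2.44, 2.54 and 2.05% of all counts in the soft gel libraries of passage 6, against 0.761, 0.778 and 0.736% in the plastic libraries of passage 6. At passage 3 they made up 1.37, 1.15 and 1.42% on soft gel, against 0.517, 0.436 and 0.498% on plastic. The mean share was thus 2.35 ± 0.260% on soft gel and 0.758 ± 0.0210% on plastic at passage 6, and 1.31 ± 0.145% on soft gel and 0.484 ± 0.0421% on plastic at passage 3 (SD, n = 3 each). On each substrate the 3 libraries of passage 6 lay above the 3 of passage 3 without overlap, a comparison the rule did not make. The highest 5 members by soft gel level held 29.2 to 43.0% of the summed counts. Without them the shares were 1.37 to 1.69% on soft gel and 0.439 to 0.478% on plastic at passage 6, and 0.763 to 1.01% on soft gel and 0.282 to 0.332% on plastic at passage 3, with the same order and no overlap. These are bulk RNA measurements, in which fewer cells of a type and less RNA per cell cannot be told apart.

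**Figure D1:**
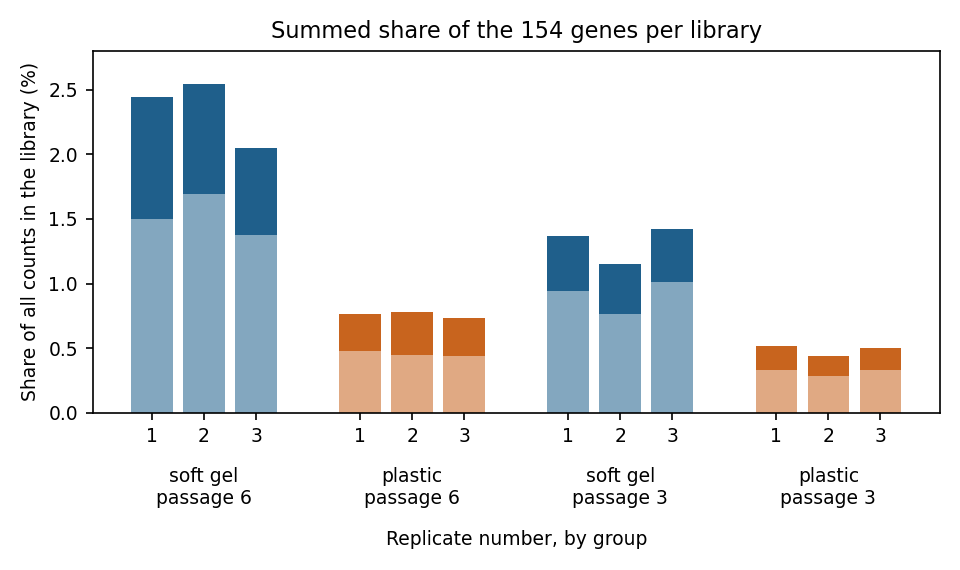
Share of all counts taken by the 154 members (y axis, percent) in each of the 12 libraries, soft gel in blue and plastic in orange, with the replicate number on the x axis. The pale part of each bar is the share without the 5 highest members. Soft gel libraries of passage 6 reach 2.05 to 2.54% and plastic libraries of passage 3 lie at 0.436 to 0.517%.

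Members covered a wide range of expression. Their mean level over the 6 soft gel libraries ran from 2.01 to 2039 CPM with a median of 37.2, where the median gene tested was at 17.9. On plastic it ran from 0.309 to 833 CPM with a median of 11.96, where the median gene tested was at 15.8. On soft gel 131 members averaged at least 10 CPM and 38 at least 100, while on plastic 84 averaged at least 10 CPM, 13 at least 100 and 9 were under 1. By group the median member stood at 43.1 CPM on soft gel at passage 6 and 13.1 on plastic at passage 6, and at 24.3 on soft gel at passage 3 and 9.36 on plastic at passage 3. Soft gel at passage 6 held the highest of the 4 group means for 123 members and soft gel at passage 3 for the other 31. The lowest mean was on plastic at passage 3 for 116 members and on plastic at passage 6 for 38.

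ENSRNOG00000016695 was the member with the highest level on soft gel. It had 2685, 1543 and 3053 CPM in the soft gel libraries of passage 6, against 674, 915 and 1317 on plastic at that passage. At passage 3 it had 1812, 1544 and 1598 CPM on soft gel, against 786, 619 and 685 on plastic. The soft gel and plastic libraries did not overlap at either passage, and the difference was smallest in pair 2 of passage 6, at 0.75 on the log2(CPM + 1) scale, and largest in pair 1 of that passage, at 1.99. Between passages the levels overlapped on soft gel and on plastic, and neither change passed (edgeR adjusted p = 0.239 on soft gel and 0.257 on plastic).

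In size, the substrate difference had a median over members of 1.44, 1.64 and 1.42 in pairs 1, 2 and 3 of passage 6 and of 1.32, 1.20 and 1.35 in the pairs of passage 3, all on the log2(CPM + 1) scale. The largest difference in a pair was 3.69, 4.91 and 4.40 at passage 6 and 3.76, 3.45 and 3.92 at passage 3. Of the 154 members, 59 were at least 1 higher in every pair and 2 at least 2 higher. The lowest of the 6 differences fell in pair 2 of passage 3 for 54 members and in each other pair for 16 to 27. Just inside the threshold, members had a smallest difference of 0.709, 0.709 and 0.714, and just outside it genes had 0.6997, 0.699 and 0.697. A further 144 genes met the threshold in 5 of 6 pairs. The rule held in all 3 pairs of passage 6 for 425 genes and in all 3 of passage 3 for 321.

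**Figure D2:**
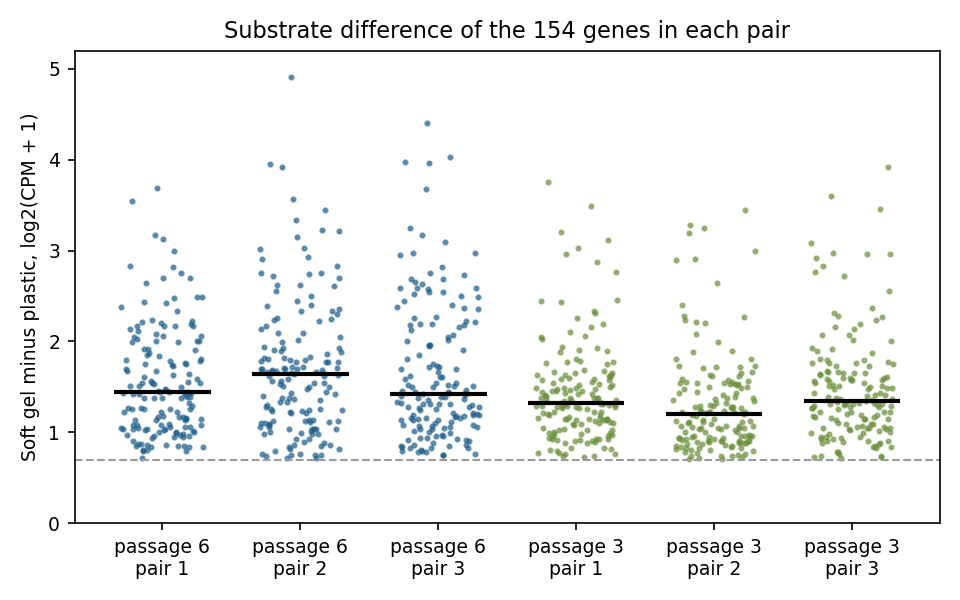
Soft gel minus plastic in log2(CPM + 1) (y axis) for each of the 154 members (points) in the 6 pairs (x axis), passage 6 in blue and passage 3 in green. Black lines are the medians, 1.20 to 1.64, and the dashed line is the threshold of 0.7 that chose the members.

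The gene with the largest value of its smallest difference was ENSRNOG00000061379. It had 80.1, 22.9 and 44.5 CPM on soft gel at passage 6, against 5.95, 1.55 and 1.15 on plastic. At passage 3 it had 325, 164 and 347 CPM on soft gel, against 40.9, 25.4 and 43.3 on plastic. Its smallest difference was 2.65 on the log2(CPM + 1) scale, in pair 2 of passage 3, and its largest 4.40, in pair 3 of passage 6. It was low at passage 6 on both substrates: the log2 fold change of passage 6 over passage 3 was -2.56 ± 0.60 on soft gel (SE, edgeR adjusted p = 0.0193) and -3.66 ± 0.64 on plastic (edgeR adjusted p = 0.00522). On soft gel that call was lost when 1 of 4 libraries was left out (replicate 1 or 3 of passage 3, or 2 or 3 of passage 6), at adjusted p of 0.0531 to 0.0622 and log2 fold changes of -2.23 to -2.47.

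As a description, edgeR's quasi-likelihood test without pairs called 107 members higher on soft gel at passage 6, where it called 4.87% of all genes tested in that direction, and 65 at passage 3, where the background was 1.13%. With a term for each pair (the replicate block) it called 154 at passage 6 (background 12.3%) and 153 at passage 3 (background 8.85%). These contrasts chose the members, so nothing is read from the counts.

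Passage was a separate axis, set by comparing libraries of passage 6 with libraries of passage 3 on the same substrate. On soft gel 35 members (22.7%) rose at passage 6, where 6.76% of all genes tested did, and 4 (2.60%) fell, where 5.5% did (edgeR, adjusted p under 0.05 over all genes tested). On plastic 28 members (18.2%) rose, where the background was 7.67%, and 12 (7.79%) fell, where it was 5.76%. The median log2 fold change of members was 0.59 on soft gel and 0.45 on plastic, against 0.03 and 0.01 over all genes tested. The value was above 0 for 117 members on soft gel and 114 on plastic, and for 54.1% and 51.4% of all genes tested. At least 2-fold changes made up 29 of the 35 rises and 3 of the 4 falls on soft gel, and 20 of the 28 rises and 8 of the 12 falls on plastic.

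Some of the genes tested had a lower mean level over the 12 libraries than any member. Leaving those out sets a floor and does not match the levels of the members. Among the 11960 tested genes at or above the mean level of the lowest member, 7.73% rose and 6.30% fell on soft gel, and 8.80% rose and 6.43% fell on plastic. The labels do not say how the cultures of the 2 passages relate, and same-numbered libraries did not deviate together between passages. The effect of passage and that of any change of cultures therefore cannot be told apart. The counts changed when 1 library was left out. The 35 became 21 and 22 without soft gel replicate 1 or 2 of passage 3. The 28 became 15, 16 and 16 without plastic replicate 1, 2 or 3 of passage 3. The 4 became 1 without soft gel replicate 1 or 3 of passage 3 or replicate 2 of passage 6. The 12 became 5, 5 and 6 without plastic replicate 1 or 3 of passage 3 or replicate 2 of passage 6. The share of all genes called in each of these fits is not given here, so nothing about the members is read from the changes.

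The lists on the 2 substrates shared 19 members that rose, 54.3% of the soft gel list and 67.9% of the plastic list. A further 16 passed as higher on soft gel alone and 9 on plastic alone, and 3 fell on both, 1 on soft gel alone and 9 on plastic alone. No member passed in opposite directions and 97 passed on neither substrate. The soft gel and plastic libraries of a pair deviate together, so the lists are not independent, and passing on 1 substrate alone does not show that the changes differed.

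**Figure D3:**
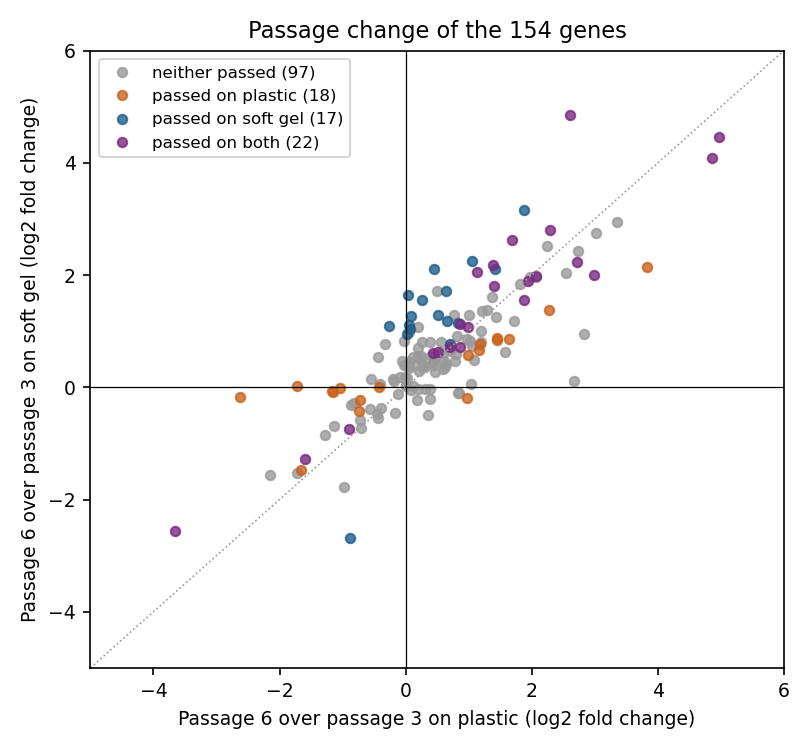
Log2 fold change of passage 6 over passage 3 on soft gel (y axis) against that on plastic (x axis) for the 154 members, coloured by the substrates on which the change passed at an adjusted p under 0.05 (edgeR), and with the line of equal change dotted. The points lie mostly above 0 on both axes (117 on soft gel, 114 on plastic), and 97 grey points passed on neither.

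ENSRNOG00000014333 had the largest rise on plastic and the second largest on soft gel. On soft gel it had 67.8, 148 and 179 CPM at passage 6, against 4.21, 3.24 and 9.74 at passage 3. On plastic it had 19.0, 15.1 and 34.1 CPM at passage 6, against 0.857, 0.463 and 0.826 at passage 3. Every library of passage 6 was above every library of passage 3, plastic at passage 6 included. On the log2 scale the rise was 4.47 ± 0.51 on soft gel (SE, edgeR adjusted p = 0.000684) and 4.97 ± 0.55 on plastic (edgeR adjusted p = 0.000651). Both passed under all 19 alternatives run.

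Of the members that rose on soft gel, ENSRNOG00000002802 rose most. It had 32.9, 87.0 and 89.9 CPM at passage 6, against 2.17, 2.204 and 2.55 at passage 3. Its passage change on soft gel was 4.86 ± 0.60 (log2, SE, edgeR adjusted p = 0.00102). On plastic it had 1.62, 1.92 and 6.09 CPM at passage 6, against 0.792, 0.188 and 0.579 at passage 3, and its change there was 2.61 ± 0.61 (log2, SE, edgeR adjusted p = 0.0185). The soft gel libraries of passage 6 stood apart from all other libraries, and at passage 6 its pair differences reached 3.69, 4.91 and 3.68, against 0.82, 1.43 and 1.17 at passage 3. It had only 49, 13 and 35 counts on plastic at passage 3, where the added 1 CPM shrinks differences. The substrate log2 fold change in edgeR without pairs was 4.29 ± 0.59 at passage 6 and 2.03 ± 0.61 at passage 3 (SE). The difference between the passage changes on the 2 substrates had edgeR adjusted p = 0.0709 with pairs and 0.572 without.

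A wide spread between cultures marked ENSRNOG00000043451. It had 1532, 2591 and 106 CPM on soft gel at passage 6, against 41.0, 34.0 and 172 at passage 3. On plastic it had 463, 343 and 38.1 CPM at passage 6, against 9.12, 9.74 and 10.4 at passage 3. Both libraries of pair 3 at passage 6 were far below those of pairs 1 and 2, and on soft gel the passages overlapped. In log2 units the rise was 4.08 ± 1.16 on soft gel (SE, edgeR adjusted p = 0.0430) and 4.86 ± 1.21 on plastic (edgeR adjusted p = 0.0236). The rise on plastic missed the threshold without any 1 of the 3 plastic libraries of passage 3 (adjusted p of 0.0854 to 0.0899). With the replicate number as a term shared by both passages, the rise on soft gel missed it at edgeR adjusted p = 0.135. The numbers were not taken to pair the passages.

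Among the members that fell, ENSRNOG00000021735 did so on plastic. It had 1.31, 1.74 and 2.03 CPM on plastic at passage 6, against 10.8, 11.04 and 8.94 at passage 3. This fall, -2.62 ± 0.37 on the log2 scale (SE, edgeR adjusted p = 0.00182), passed under all 19 alternatives run. On soft gel it had 15.4, 23.3 and 48.3 CPM at passage 6, against 35.4, 34.0 and 24.1 at passage 3, and these overlapped (log2 fold change -0.17 ± 0.33, edgeR adjusted p = 0.785).

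ENSRNOG00000002947 had the largest fall on soft gel, with 39.3, 16.7 and 61.7 CPM at passage 6, against 220, 153 and 349 at passage 3. This fall was -2.68 ± 0.69 in log2 units (SE, edgeR adjusted p = 0.0286), and it missed the threshold in 4 of 19 alternatives, each of which left out 1 soft gel library. Those libraries were replicates 1 and 3 of passage 3 and 1 and 2 of passage 6, and the adjusted p ran up to 0.0899. On plastic it had 7.98, 3.01 and 26.3 CPM at passage 6, against 26.0, 13.0 and 28.0 at passage 3, which overlapped and did not pass without a block (log2 fold change -0.89 ± 0.66, edgeR adjusted p = 0.412). With the replicate number as such a shared term it passed on plastic (-1.22 ± 0.33, edgeR adjusted p = 0.0399).

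For the 12 members that fell on plastic, the mean level on soft gel at passage 6 was at or above the mean on plastic at passage 3 in all 12, and in 8 of them the 3 soft gel libraries lay above the 3 plastic libraries without overlap. Of all 844 genes tested that fell on plastic, 12.6% had such a mean and 4.38% such a lack of overlap. In the 12 members the mean substrate difference had a median of 2.06 at passage 6 and 1.32 at passage 3. For the 28 that rose on plastic the medians were 1.39 and 1.29, and in 10 of the 28 the mean on plastic at passage 6 reached the mean on soft gel at passage 3. Over all 154 members, plastic at passage 6 averaged above soft gel at passage 3 in 19. The rule sets a minimum on both substrate differences, so these counts are a description.

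**Figure D4:**
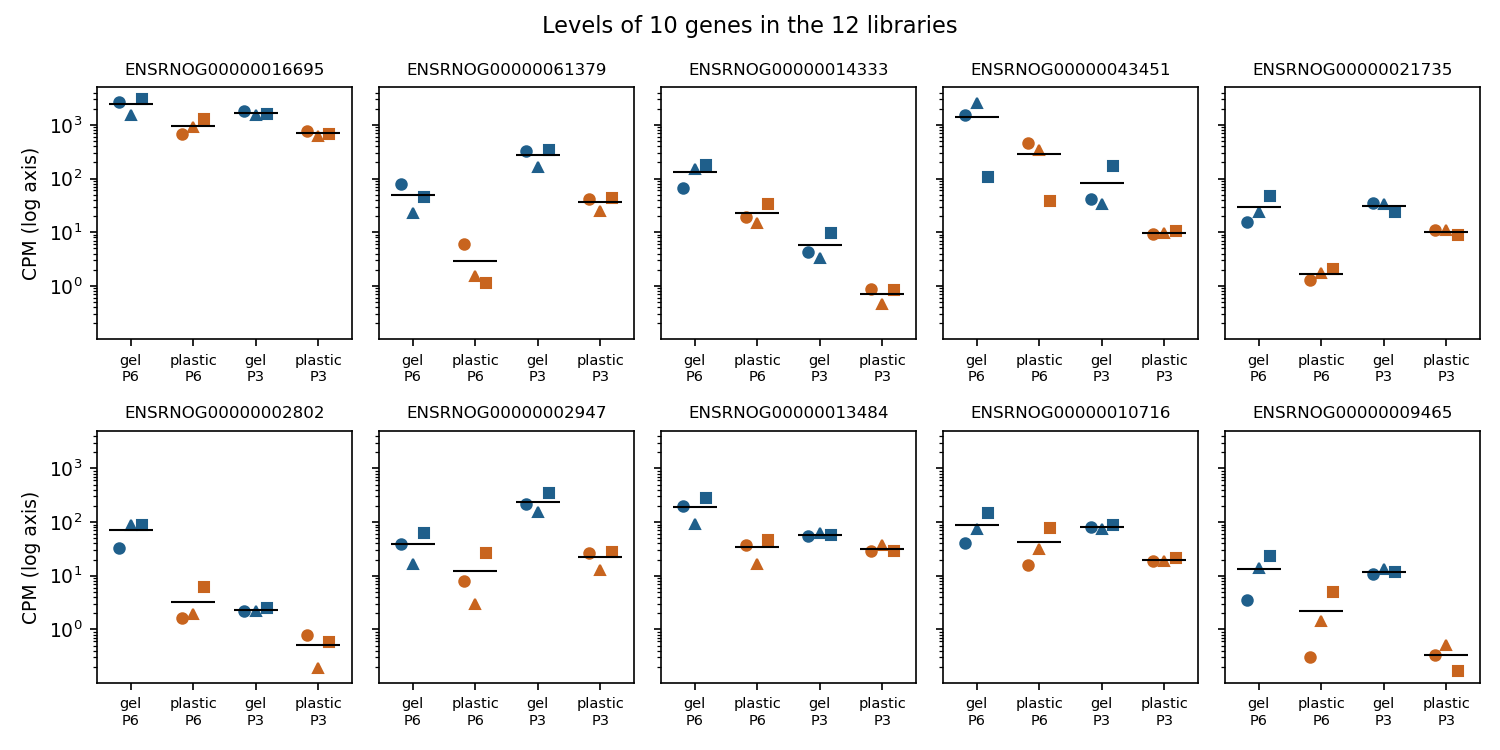
Level in CPM (y axis, log scale) of the 10 members given by identifier, in the 4 groups (x axis, soft gel in blue and plastic in orange, P6 and P3 for passage 6 and 3). Circles, triangles and squares are replicates 1, 2 and 3, and lines are group means. ENSRNOG00000014333 stands higher at passage 6 on both substrates, while ENSRNOG00000021735 differs between passages on plastic and overlaps on soft gel.

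The substrate difference was larger at passage 6 than at passage 3 for 102 members by its mean over pairs on the log2(CPM + 1) scale, where 59.5% of all genes tested did so, with a median over members of 1.46 at passage 6 and 1.29 at passage 3. By pair, plain CPM put the median gene tested 0.112 to 0.168 higher on soft gel at passage 6 and 0.0749 to 0.0961 higher at passage 3. The added 1 CPM also shrinks differences of low genes. The part that each plays in the count was not tested. On edgeR's scale without pairs, which uses TMM-scaled totals, 94 members had the larger difference at passage 6, where 51.8% of all genes tested did. For 12 of the 102 that scale turned the order. ENSRNOG00000014333 is one of them, with pair means of 2.45 at passage 6 and 1.86 at passage 3 but edgeR log2 fold changes of 2.38 ± 0.46 and 2.87 ± 0.53. The mean difference over pairs was larger by at least 1 on the log2(CPM + 1) scale at passage 6 for 17 members and at passage 3 for 4. For these counts the share of all genes tested is not given here, so nothing is read from them. All 3 pairs of passage 6 lay above all 3 of passage 3 for 35 members and below them for 13, where this held for 14.6% and 8.68% of all genes tested. Across the 154 members the mean difference at passage 6 correlated with that at passage 3 (Pearson's r = 0.370, Spearman's rho = 0.401), a description over genes that share libraries. Both differences are bounded from below by the rule, so the comparison of their sizes supports nothing beyond its own values.

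The test of that difference, an interaction of substrate and passage, called 0 members and 0% of all genes without pairs (edgeR), with 19 members and 1044 of the genes tested at an unadjusted p under 0.05. DESeq2 called 4 members and limma-voom with the pair as a random effect called 2, all with a larger difference at passage 6. The share of all genes called by DESeq2 or limma-voom is not given here, so nothing is read from these counts. The limma-voom fit also takes account of pairs, through an estimated correlation. With a term for each pair (the replicate block), edgeR called 11 members with a larger difference at passage 6, where it called 0.805% of all genes with an interaction above 0, and 5 with a smaller one, where it called 1.34% of all genes with an interaction below 0. The 11 had mean differences of 2.26 to 3.34 at passage 6 and 0.85 to 1.57 at passage 3. The 5 had 0.98 to 2.14 at passage 6 and 1.61 to 3.36 at passage 3. DESeq2 called 3 of the 11 and limma-voom 2. In each of the 16 the 3 pairs of one passage lay apart from the 3 of the other. The test that picked the 16 read these same pair differences, so this is a description. By the passage test on each substrate, 6 of the 11 rose on soft gel and 1 rose and 3 fell on plastic, while of the 5, 1 fell on soft gel and 2 rose on plastic. Leaving out pair 1, 2 or 3 of passage 6 turned the 11 into 21, 15 and 7, and leaving out those of passage 3 into 3, 3 and 2. The 5 turned into 9, 9 and 2 when a pair of passage 6 was left out and into 0, 2 and 0 when one of passage 3 was. With a pair left out the share of all genes called is not given here, so nothing about the members is read from these changes.

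**Figure D5:**
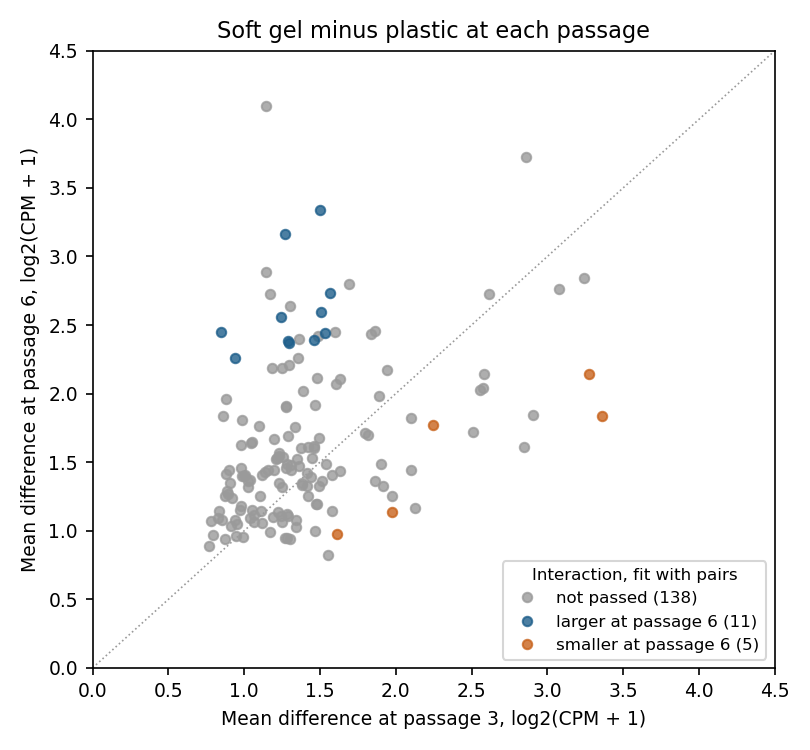
Mean soft gel minus plastic difference in log2(CPM + 1) at passage 6 (y axis) against passage 3 (x axis) for the 154 members, with the line of equality dotted. Blue points are the 11 members with a larger and orange the 5 with a smaller difference at passage 6 in the edgeR fit with pairs, and 102 members lie above the line.

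ENSRNOG00000013484 had the lowest p of the 11. It had 198, 92.0 and 287 CPM on soft gel at passage 6, against 37.2, 16.8 and 46.9 on plastic. At passage 3 it had 54.9, 62.7 and 57.0 CPM on soft gel, against 29.3, 37.8 and 29.0 on plastic. Both libraries of pair 2 were the lowest of their group at passage 6 and both the highest at passage 3, so that the pair differences stayed close, at 2.38, 2.39 and 2.59 at passage 6 and 0.88, 0.71 and 0.95 at passage 3. Its level overlapped between passages on plastic (edgeR adjusted p = 0.955), and on soft gel it rose at passage 6 by a log2 fold change of 1.65 ± 0.38 (SE, edgeR adjusted p = 0.0182). The interaction was 1.58 ± 0.11 with pairs (edgeR adjusted p = 0.00145) and 1.61 ± 0.53 without (edgeR adjusted p = 0.516). It missed the threshold in limma-voom with the estimated correlation of pairs (adjusted p = 0.0596) and in DESeq2 (adjusted p = 0.1097).

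For ENSRNOG00000021735, which fell on plastic, soft gel exceeded plastic by 2.83, 3.15 and 4.03 in the pairs of passage 6, against 1.62, 1.54 and 1.33 in those of passage 3. The interaction was 2.35 ± 0.24 with pairs (SE, edgeR adjusted p = 0.00374) and 2.45 ± 0.49 without (edgeR adjusted p = 0.261). It missed the threshold in limma-voom with the estimated correlation of pairs (adjusted p = 0.139) and passed in DESeq2, which takes no pairs (adjusted p = 0.000387).

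In the other direction, ENSRNOG00000010716 had 39.9, 75.9 and 149.6 CPM on soft gel at passage 6, against 16.1, 32.0 and 77.5 on plastic, and at passage 3 it had 79.96, 73.8 and 89.8 on soft gel, against 18.9, 19.2 and 21.6 on plastic. At passage 6 both libraries of pair 3 were the highest of their group and both of pair 1 the lowest, and the pair differences were 1.26, 1.22 and 0.94. At passage 3 the differences were 2.02, 1.89 and 2.01. The interaction was -0.91 ± 0.12 with pairs (SE, edgeR adjusted p = 0.00831) and -0.99 ± 0.71 without (edgeR adjusted p = 0.886). The call with pairs was lost in limma-voom with the estimated correlation (adjusted p = 0.378) and, in edgeR, when pair 1 or 3 of passage 3 was left out (adjusted p = 0.0557 and 0.0654). Without pairs the value was -0.25 when plastic replicate 3 of passage 6 was left out, -0.64 without soft gel replicate 1 and -1.56 without soft gel replicate 3 of that passage.

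ENSRNOG00000009465 was near the floor of detection on plastic at passage 3, with 21, 35 and 10 counts. It had 3.55, 14.1 and 22.9 CPM on soft gel at passage 6, against 0.304, 1.46 and 4.95 on plastic, and 10.7, 13.3 and 11.8 CPM on soft gel at passage 3, against 0.340, 0.506 and 0.165 on plastic. The soft gel levels of the passages overlapped, and on plastic they overlapped too, with replicate 1 of passage 6 within the range of passage 3. The interaction was -2.32 ± 0.43 with pairs (SE, edgeR adjusted p = 0.0351) and -2.56 ± 1.18 without (edgeR adjusted p = 0.715). The call with pairs was lost in limma-voom with the estimated correlation (adjusted p = 0.568) and, in edgeR, when any pair of passage 3 or pair 3 of passage 6 was left out (adjusted p of 0.0863 to 0.125). Without pairs the value was -1.27 when plastic replicate 3 of passage 6 was left out.

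Members also varied more between plastic cultures of one passage than the median gene did. The ranges within the soft gel groups are not given here. On plastic, the range of the 3 libraries of a group in log2(CPM + 1) had a median over members of 0.856 at passage 6 and 0.423 at passage 3, against 0.370 and 0.208 over all genes tested and 0.383 and 0.206 over those at or above the level of the lowest member. At passage 6 this range was at least 2 for 27 members (17.5%), where 2.03% of genes tested reached it, and at passage 3 for 3 (1.95%), where 0.198% did. The range of the 3 pair differences, which the rule read, had a median over members of 0.687 at passage 6 and 0.385 at passage 3, against 0.346 and 0.272 over all genes tested. The range on plastic exceeded that of the pair differences in 67.5% of members at passage 6 and 55.2% at passage 3, against 55.4% and 37.5% of all genes tested. Of the 27 members with a range of at least 2 on plastic at passage 6, 15 had pair differences within less than 1 of each other. Across members, the deviations of the libraries of a pair from their group means correlated at r = 0.753, 0.826 and 0.920 for pairs 1, 2 and 3 of passage 6 and at 0.429, 0.673 and 0.720 for those of passage 3, as a description over 154 genes that had to pass in every pair.

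Among the pairs, only pair 3 of passage 6 was checked for standing apart, and it did so from pairs 1 and 2 for a few members. On both substrates its level in log2(CPM + 1) was at least 2 below those of pairs 1 and 2 for 6 members, where 0.266% of genes tested did so, and at least 2 above them for 2 members, where 0.0341% did. ENSRNOG00000043451 is an example of the first. Without both libraries of that pair, 47 members passed as higher and 6 as lower at passage 6 on soft gel, and 32 as higher and 14 as lower on plastic. These counts share 32, 3, 21 and 8 members with the lists from all 12 libraries. The share of all genes called without that pair is not given here, so nothing about the members is read from the change.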

How the data were processed

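Per the labels' protocols, polyadenylated RNA gave read pairs of 150 bases. The authors' deposited table holds unnormalized read counts, one whole number for each library and Ensembl gene. Named in the submitters' processing notes are the build Rnor_6.0 and the tools HISAT2 2.1.0, Cuffnorm 2.2.1, Cufflinks and FastQC 0.11.5. How reads were counted, with which strand setting and annotation release, is not given in the sources used here, so reads of overlapping genes or near-identical copies could be assigned to the wrong gene. Of the identifiers, 0 matched the gene tables at hand, so gene lists, marker lists and promoter motifs written down for this work were not tested and no sequence is shown.

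Members were found from CPM on column sums with a pseudocount of 1. The members, the lists and the tests were chosen with earlier results of these data known. For tests, genes were filtered with edgeR's filterByExpr by group (minimum count 10, minimum total 15), scaled by TMM and fitted with edgeR 4.0.16 in R 4.3.3 by the quasi-likelihood F test, the 4 groups in 1 model, with Benjamini-Hochberg adjustment over the 14660 genes tested and a threshold of 0.05. CPM levels in the text are on plain column sums, fold changes on TMM-scaled totals. Standard errors come from each fold change and its F value. The fits were tested on simulated data. Alternatives used DESeq2 1.42.0 and limma 3.58.1, other scalings, no filter, fewer libraries and a replicate block. Tables and figures were made in Python 3.11.15 (matplotlib 3.10.9, scipy 1.17.1, numpy 2.4.6, pandas 2.3.3).

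Because no names could be had, at most 2 identifiers per direction and comparison are given. Those were the largest passage changes among members that passed with no overlap between libraries, the lowest p in the interaction with pairs, and, for the substrate difference, the member with the highest soft gel level and the one with the largest smallest difference. This ordering was settled after the table was seen.

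Replicates are biological by their labels, which leave unsaid whether an animal or a culture was the unit, and p-values thus measure only how these libraries spread. Counts of replicates differed far beyond sampling noise (chi-square per degree of freedom 30.9 to 346, over genes with at least 20 counts), so none was taken as a duplicate. Same-numbered soft gel and plastic libraries deviated together from their group means over all genes tested, with r = 0.652, 0.608 and 0.770 at passage 6 and r = 0.415, 0.533 and 0.633 at passage 3. Within a passage the numbers therefore pair the substrates. Between passages r ran from -0.266 to 0.0134, so the numbers were not taken to pair the passages, on which the labels say nothing. In the interaction and the substrate comparisons the replicate block is a term for each pair, and in the passage comparisons a term for each number. Elsewhere, apart from limma-voom, paired libraries entered the fits as independent.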

Additional observations from a re-analysis of the deposited data

Results flagged for a closer look

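For 4 members the substrate difference, soft gel minus plastic, passed as different between passages in the edgeR fit with a term for each pair. The interaction, passage 6 minus passage 3 on the log2 scale, was 1.58 for ENSRNOG00000013484, 2.35 for ENSRNOG00000021735, -0.91 for ENSRNOG00000010716 and -2.32 for ENSRNOG00000009465. In each of them the 3 pairs of passage 6 lay apart from the 3 pairs of passage 3, which describes the differences that the test itself read. None passed in edgeR without pairs, nor in limma-voom with the pair as a random effect, where the adjusted p was 0.0596, 0.139, 0.378 and 0.568 in that order. They passed in 7, 8, 5 and 3 of the 24 alternatives run, and apart from DESeq2 for ENSRNOG00000021735 those were the replicate block itself and the block with a pair left out. They are the 2 members per direction with the lowest p of the 16 that passed, and the rule holds both differences at or above 0.7, so they were picked for what they show.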

How the results depend on the processing

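The number of members was 320 with a threshold of 0.5, 59 with a threshold of 1 and 398 when group means replaced pairs, against 154 by the rule. It was 163 to 196 without any 1 pair, and with TMM-scaled totals 109. A pseudocount of 0.5 gave 182 members and one of 2 gave 121. With 1 library left out, the members that rose at passage 6 numbered 21 to 39 on soft gel and 15 to 35 on plastic, and those that fell 1 to 5 on soft gel and 5 to 13 on plastic. DESeq2 called 44 members higher on plastic. The cause of these shifts was not tested, and the share of all genes called in each of these fits is not given here. With the replicate number as a block shared by both passages, although the numbers do not pair the passages, 33 members rose and 6 fell on soft gel, and 32 rose and 17 fell on plastic. None of the 12 results of single members run under the alternatives changed direction. They are 4 passage changes on each substrate and 4 interactions, and other values of named members were not rerun.

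The number of members with a larger substrate difference at passage 6 was 0 without pairs, 11 with the replicate block (a term for each pair), 4 with DESeq2, 2 with limma-voom, and 0 to 1 with 1 library left out (1 without soft gel replicate 2 of passage 6). With the replicate block and a pair left out, an alternative chosen after seeing the data, it was 21, 15 and 7 when pair 1, 2 or 3 of passage 6 was left out and 3, 3 and 2 when one of passage 3 was. The number with a smaller difference was 5 with the replicate block, 9, 9 and 2 when a pair of passage 6 was left out and 2 when pair 2 of passage 3 was. Shares of all genes called are given above only for edgeR on all libraries, with and without pairs. The 9 members that averaged under 1 CPM on plastic have few counts there, which limits the precision of their differences. With 3 libraries a group a missed threshold does not show that a gene did not change.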
